A study of Homo sapiens with 6 samples.

Results

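The D, E, A and B cyclins, a pair of CDK inhibitors and MYC were followed in HEK293T cells carrying a plasmid labelled ERbeta and in cells carrying an empty vector. The 10 genes were CCND1, CCND2, CCND3, CCNE1, CCNE2, CCNA2, CCNB1, CDKN1A, CDKN1B and MYC. They were taken from the deposited count table of 64299 genes by matching each Ensembl identifier, without its version, to the symbol. All 10 were among the 16243 genes that passed the filter on low counts. The mRNA of 3 ERbeta libraries and 3 EV_Ctrl libraries was sequenced with a stranded kit. HEK293T is a human embryonic kidney line, and the cells were transfected with FuGENE 6. The share of cells that took up the plasmid is not given in the sources used here. The labels do not define ERbeta. From what is known of this study, it was taken to be an artificial β-sheet protein sent into the endoplasmic reticulum (ER), not the estrogen receptor, and it was compared with the empty vector to see how cells respond to it.

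Cyclins bind and switch on cyclin-dependent kinases (CDKs), which drive a cell through its division cycle. D cyclins with CDK4 and CDK6 act early in G1, E cyclins with CDK2 at entry into S phase, A2 through S phase and G2, and B1 with CDK1 at mitosis. CDKN1A (p21) and CDKN1B (p27) bind and restrain these kinases, and MYC is a transcription factor that promotes growth and cell cycle entry. In stressed ER, the sensor kinase PERK slows translation and is known to lower cyclin D1 protein and hold cells in G1, a step that mRNA counts do not measure. HEK293T carries adenovirus E1A and the SV40 large T antigen, viral proteins known to bind RB, so the line is a special case for genes that RB controls. In these bulk libraries fewer cells in a cell cycle phase and less RNA per cell cannot be told apart.

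Total counts were 13149304 to 16531368 in ERbeta and 6833442 to 27101644 in EV_Ctrl. After Benjamini-Hochberg adjustment over all genes, edgeR's quasi-likelihood test called 0 of 16243 genes at 0.05 (0%), DESeq2 71 (0.438%) and limma-voom 1 (0.00616%). Before adjustment, 2018 genes (12.4%) had a p under 0.05 in edgeR, 9.54% higher and 2.88% lower in ERbeta. With the correction described next edgeR called 0.0559% of genes, and with no filter on low counts 0.167%. The 10 genes had 116 to 6917 reads per library. EV_Ctrl 2 stood apart from the other controls in its base composition. A line through each library's deviation in log2 CPM (read counts scaled to library size) against GC content had a slope, per 10 percentage points of GC, of -0.07, -0.02 and -0.30 in ERbeta 1, 2 and 3. It was 0.24, -0.05 and 0.20 in EV_Ctrl 1, 2 and 3. The genes named by rule are therefore also given after a correction for this trend (GC correction), and those that passed without EV_Ctrl 2 (14.3% of all genes), or without it and with GC correction (10.3%), are given with that value. HSPA5, the ER chaperone BiP, was at 870, 877 and 888 CPM in ERbeta and at 530, 536 and 501 CPM in EV_Ctrl. Its 3 ERbeta libraries lay above all controls (adjusted p 0.13 in edgeR and 1.96e-09 in DESeq2). All 7 listed HEK293 features were measured, with VIM at 845 to 984 CPM in ERbeta and 839 to 906 CPM in EV_Ctrl. Of the 7, 3 were higher and 4 lower in ERbeta, with log2 fold changes from -0.55 to 0.08 and 0 calls in edgeR. The 10 listed markers of blood, endothelial and liver cells had at most 10 reads in any library and were not tested, with CD3E, HBB and TTR at 0. Of 4 fibroblast markers COL1A2 was at 0, DCN had at most 2 reads, and COL1A1 and LUM were tested. COL1A1 was at 13.5 to 22.2 CPM in ERbeta and 19.2 to 31.0 CPM in EV_Ctrl, and LUM at 1.61 to 2.09 CPM in ERbeta and 0.784 to 2.07 CPM in EV_Ctrl.

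The promoter windows of the 4 genes whose groups did not overlap are printed here, CDKN1B and CCNA2 being higher and CDKN1A and CCNE1 lower in ERbeta. Of all tested genes 18.7% did not overlap, 10.2% higher and 8.48% lower, so the choice of these 4 shows nothing about them. Each runs 5′ to 3′ on the gene's strand, from RefSeq on GRCh38.p14, and capitals mark the motifs found.
CDKN1B, chr12:12717118-12717417 (plus strand): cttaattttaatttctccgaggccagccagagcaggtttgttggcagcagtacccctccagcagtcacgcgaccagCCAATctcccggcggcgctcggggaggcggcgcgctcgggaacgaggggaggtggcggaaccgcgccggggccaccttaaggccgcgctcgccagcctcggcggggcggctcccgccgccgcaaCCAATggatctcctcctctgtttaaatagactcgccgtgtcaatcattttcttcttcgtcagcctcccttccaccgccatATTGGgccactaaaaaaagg
CCNA2, chr4:121823834-121824133 (minus strand): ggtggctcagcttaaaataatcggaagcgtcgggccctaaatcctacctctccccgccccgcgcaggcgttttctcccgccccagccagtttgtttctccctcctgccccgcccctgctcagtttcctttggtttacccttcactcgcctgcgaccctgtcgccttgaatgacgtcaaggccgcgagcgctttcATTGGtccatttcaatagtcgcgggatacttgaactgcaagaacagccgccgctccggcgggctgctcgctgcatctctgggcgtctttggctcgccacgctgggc
CDKN1A, chr6:36678464-36678763 (plus strand): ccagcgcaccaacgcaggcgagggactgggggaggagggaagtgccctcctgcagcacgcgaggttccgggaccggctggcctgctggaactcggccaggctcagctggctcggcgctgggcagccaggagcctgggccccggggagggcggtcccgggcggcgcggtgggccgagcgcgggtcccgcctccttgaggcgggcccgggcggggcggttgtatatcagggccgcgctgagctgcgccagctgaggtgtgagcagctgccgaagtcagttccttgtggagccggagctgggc
CCNE1, chr19:29811741-29812040 (plus strand): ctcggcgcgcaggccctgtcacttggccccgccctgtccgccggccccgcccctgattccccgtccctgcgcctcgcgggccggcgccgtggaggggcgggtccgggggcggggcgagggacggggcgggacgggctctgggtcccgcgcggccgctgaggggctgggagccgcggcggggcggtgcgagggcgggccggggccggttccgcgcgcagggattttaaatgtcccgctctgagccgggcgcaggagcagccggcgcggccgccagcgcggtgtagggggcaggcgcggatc
A window covers 250 bases before a RefSeq start and 50 after it, and motif positions are counted from that start. In each of these genes the RefSeq start lies inside the gene span given below, furthest in CDKN1B and CDKN1A. The windows were searched on both strands for 5 kinds of motif. These were the CCAAT box, the cell cycle homology element TTTGAA and the E-box CACGTG, which MYC can bind. Other spellings of the homology element were not searched, so a window without TTTGAA may still hold one. The E2F cores were spelled TTGGCGC in one form, TTCGCGC in another form and TTCCCGC in the last. The core of the ATF4 element was TTGCATC. CDKN1B held CCAAT at 174 and 50 bases before and, on the other strand, 31 bases after the start. CCNA2 held one on the other strand at 56 bases before it. None of the motifs was in the windows of CDKN1A and CCNE1, which were 74.3% and 81.0% GC, against 62.3% in CDKN1B and 61.0% in CCNA2. Among 35116 RefSeq windows, 34.6% held CCAAT, 15.2% TTTGAA, 11% an E2F core, 7.26% the E-box and 2.40% the ATF4 core. These matches describe letters in a window and are not binding sites.

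The mean levels of the CDK inhibitors differed in opposite directions, and neither passed the test over all genes. CDKN1B (chr12:12715058-12722371, plus strand, GRCh38), which encodes p27 and restrains CDK2 complexes in resting cells, was at 90.5, 88.7 and 101 CPM in ERbeta and at 81.5, 71.3 and 77.8 CPM in EV_Ctrl. All 3 ERbeta libraries lay above all 3 controls. The means were 93.3 ± 6.36 and 76.8 ± 5.17 CPM (SD, n = 3 each), a 1.22-fold difference with a 95% interval of 1.02 to 1.44. The log2 fold change was 0.28 ± 0.11 (SE) with an adjusted p of 0.396 in edgeR, which did not pass. In the authors' deposited table CDKN1B had a log2 fold change of 0.27 and an adjusted p of 0.0406, and 3.78% of the genes with an adjusted p there were under 0.05. Its value was 0.30 after GC correction and between 0.18 and 0.39 in all 18 alternative fits, none of which passed (adjusted p 0.152 to 1.00). EV_Ctrl 2, the control whose GC trend was nearest to that of ERbeta, had the lowest CDKN1B level of the 6 libraries, and against it alone the log2 fold change was 0.39. The part of the GC trend in the CDKN1B difference was not tested beyond the correction.

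CDKN1A (chr6:36676460-36687339, plus strand) encodes p21, the CDK inhibitor best known for halting the cycle after DNA damage. It was at 181, 192 and 202 CPM in ERbeta and at 211, 214 and 216 CPM in EV_Ctrl. The ERbeta libraries all lay below the controls, which had an SD of 2.62 CPM. Its log2 fold change was -0.16 ± 0.09, a fold of 0.897 with a 95% interval of 0.776 to 1.04 (adjusted p 0.468, edgeR). After GC correction it was -0.02, and without EV_Ctrl 2 as well it was 0.03. In the authors' deposited table the value was -0.16 with an adjusted p of 0.158. Within each library, CDKN1B took 33.3%, 31.6% and 33.3% of the reads of both inhibitors in ERbeta and 27.9%, 25.0% and 26.5% in EV_Ctrl. These shares, which do not depend on how libraries are scaled but were not corrected for GC content, did not overlap. The difference was 6.28 percentage points (exact permutation test, two-sided, p = 0.1, the smallest that 3 against 3 allows, and 0.3 adjusted over the 6 shares computed). The shares were chosen after the values of the genes were seen.

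**Figure D1:**
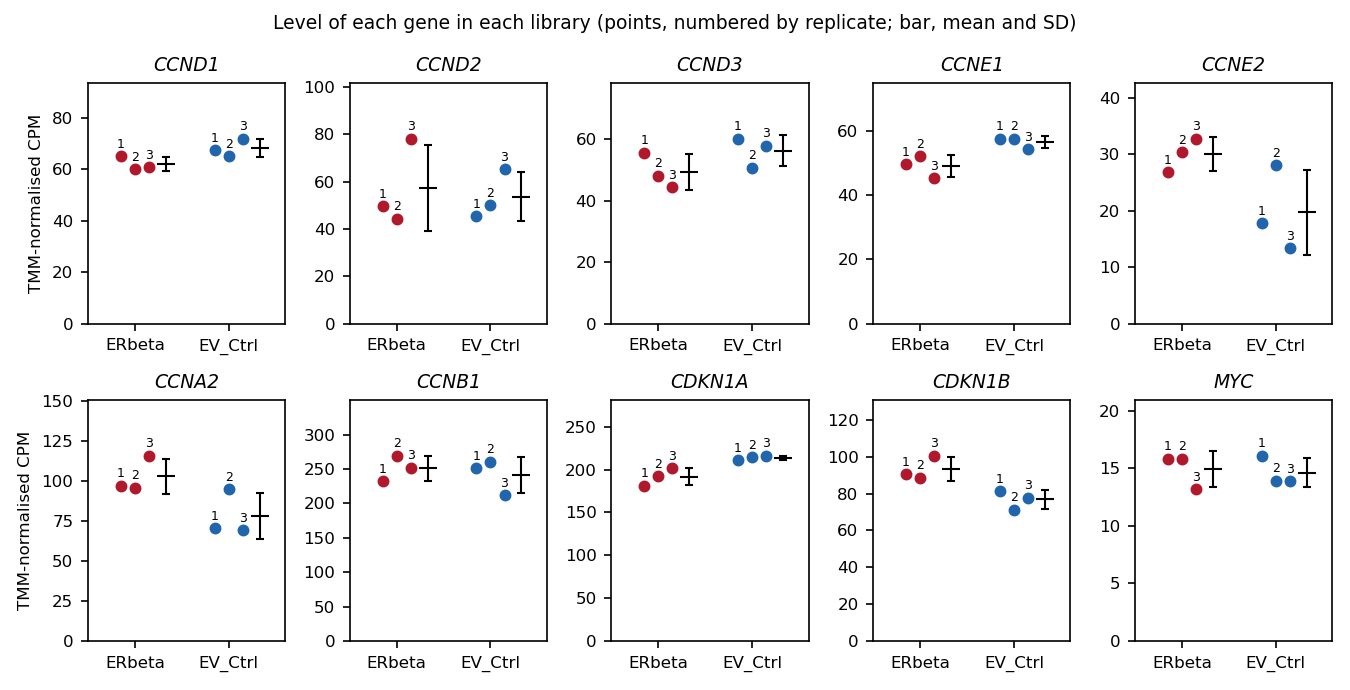
TMM-normalised CPM (vertical axis, from 0) of each of the 10 genes in the ERbeta (red) and EV_Ctrl (blue) libraries, with replicate numbers at the points and the mean and SD as bars. CDKN1B and CCNA2 were above and CDKN1A and CCNE1 below in all ERbeta libraries, and EV_Ctrl 2 lay near the ERbeta libraries for CCNE2 and CCNA2.

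The E cyclins, partners of CDK2 at the start of S phase, differed in opposite directions in their means, without passing the test. CCNE2 (chr8:94879770-94896678, minus strand) was at 26.9, 30.4 and 32.8 CPM in ERbeta and at 17.9, 28.1 and 13.4 CPM in EV_Ctrl. ERbeta was above EV_Ctrl 1 and 3, whereas EV_Ctrl 2 lay within the ERbeta range. The log2 fold change, the largest of the 10 genes, was 0.58 ± 0.25, with a 95% interval of -0.01 to 1.17 (adjusted p 0.396, edgeR). Without EV_Ctrl 2 it was 0.96 and passed (adjusted p 0.00221), in a fit where 14.3% of all genes passed. With GC correction it was 0.07, and 0.15 with GC correction and without EV_Ctrl 2 (10.3% of all genes called), neither passing. The authors' deposited table gave 0.36 with an adjusted p of 0.191. Its longest transcript was 36.9% GC, the lowest of the 10 genes, where the median tested gene was at 48.5%. The part of the GC trend in this difference was not tested beyond the correction. Exons of INTS8 overlap those of CCNE2 on the opposite strand, and INTS8 had a log2 fold change of 0.42. The kit keeps strand, but the strand setting of the counting is not given, so reads in the shared stretch may belong to either gene.

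CCNE1 (chr19:29811898-29824308, plus strand) was at 49.5, 52.0 and 45.2 CPM in ERbeta and at 57.5, 57.4 and 54.3 CPM in EV_Ctrl. Every ERbeta library lay below every control. This gave a log2 fold change of -0.21 ± 0.11, a fold of 0.867 with a 95% interval of 0.731 to 1.03 (adjusted p 0.431, edgeR), and -0.12 after GC correction. Its sign held in all 18 alternatives, between -0.30 and -0.06. As a share of the reads of both E cyclins, CCNE2 took 35.2%, 36.9% and 42.1% in ERbeta and 23.7%, 32.8% and 19.8% in EV_Ctrl. The groups did not overlap, at a difference of 12.6 percentage points (exact permutation p = 0.1, 0.3 adjusted over the 6 shares). The longest transcripts of CCNE2 and CCNE1 were 36.9% and 52.9% GC, and the shares were not corrected for the GC trend. EV_Ctrl 2, at 32.8%, was closer to ERbeta 1 than to the other controls, and the controls alone spanned 19.8% to 32.8%.

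**Figure D2:**
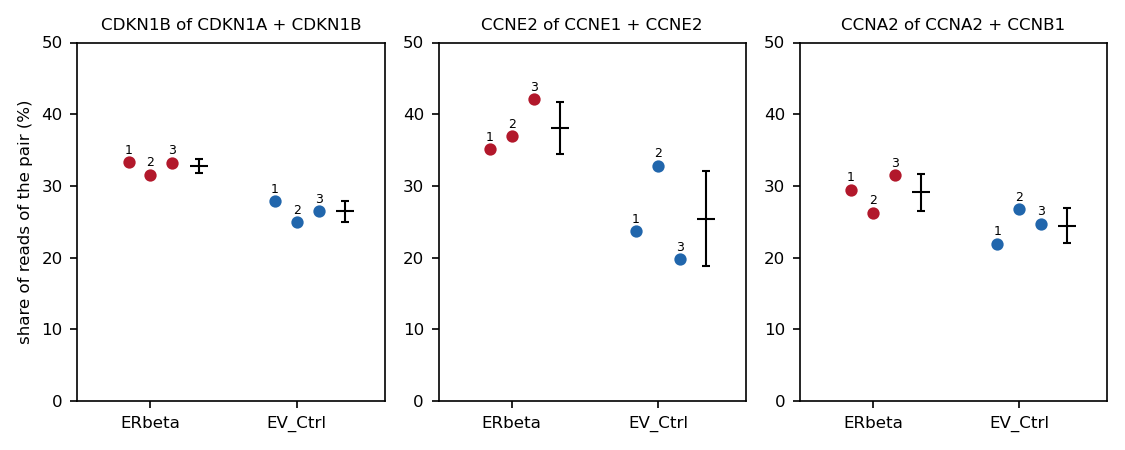
Share (%) of the reads of a pair of genes that fell on the first one, in each ERbeta (red) and EV_Ctrl (blue) library, with replicate numbers and the mean and SD as bars. The CDKN1B share was 31.6% to 33.3% in ERbeta and 25.0% to 27.9% in EV_Ctrl, the CCNE2 share varied most among the controls, and the CCNA2 shares overlapped.

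CCNA2 (chr4:121816444-121823933, minus strand), the cyclin of S phase and G2 that binds CDK2 and CDK1, was at 97.2, 96.0 and 116 CPM in ERbeta and at 70.7, 95.2 and 69.5 CPM in EV_Ctrl. The groups did not overlap, but EV_Ctrl 2 was within 1 CPM of the lowest ERbeta library. The means were 103 ± 11.2 and 78.4 ± 14.5 CPM (SD, n = 3 each), and the log2 fold change was 0.39 ± 0.15 (adjusted p 0.396, edgeR). Without EV_Ctrl 2 it was 0.56 and passed (adjusted p 0.0138). After GC correction it was 0.18, after GC correction without EV_Ctrl 2 it was 0.25, and against EV_Ctrl 2 alone 0.12, none passing. The authors' deposited table gave 0.33 with an adjusted p of 0.0888. EXOSC9, whose exons overlap those of CCNA2 on the opposite strand, had a log2 fold change of 0.48. As for CCNE2, shared reads were not told apart here.

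CCNB1 (chr5:69167010-69178245, plus strand), the mitotic partner of CDK1, was at 233, 269 and 252 CPM in ERbeta and at 251, 261 and 212 CPM in EV_Ctrl. The groups were interleaved. CCNB1 had a log2 fold change of 0.06 with a 95% interval of -0.21 to 0.33 (adjusted p 0.828, edgeR), so a fold of 0.866 to 1.25 remained possible. The sign turned with GC correction (-0.09). CCNA2 took 29.5%, 26.3% and 31.5% of the reads of CCNA2 and CCNB1 in ERbeta and 21.96%, 26.7% and 24.7% in EV_Ctrl, shares that overlapped (exact permutation p = 0.2).

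The D cyclins, which link growth signals to CDK4 and CDK6, gave small differences of either sign. CCND1 (chr11:69641087-69654474, plus strand), whose protein is the known target of PERK's translation block, was at 65.2, 60.1 and 60.9 CPM in ERbeta and at 67.5, 65.2 and 72.0 CPM in EV_Ctrl. The lowest control and the highest ERbeta library were nearly equal. The log2 fold change was -0.14 ± 0.10, a fold of 0.910 with a 95% interval of 0.774 to 1.07 (adjusted p 0.559, edgeR), and -0.07 after GC correction. CCND3 (chr6:41934933-42050357, minus strand) was at 55.7, 48.2 and 44.4 CPM in ERbeta and at 60.3, 50.8 and 58.0 CPM in EV_Ctrl, with a log2 fold change of -0.19 ± 0.13 (adjusted p 0.533). These overlapped as well, and CCND3 was at -0.07 after GC correction. CCND2 (chr12:4273772-4305350, plus strand) was at 49.6, 44.3 and 78.1 CPM in ERbeta and at 45.4, 50.03 and 65.3 CPM in EV_Ctrl. ERbeta 3 and EV_Ctrl 3 were the highest of their groups. With all libraries the log2 fold change was 0.09 with a 95% interval of -0.46 to 0.65 (adjusted p 0.87). It was -0.19 without ERbeta 3 and -0.01 without EV_Ctrl 1. Of the reads of the D cyclins, CCND2 took 29.1%, 29.02% and 42.6% in ERbeta and 26.2%, 30.1% and 33.4% in EV_Ctrl, so ERbeta 3 was the highest. CCND1 took 33.2% to 39.4% in ERbeta and 36.9% to 39.3% in EV_Ctrl.

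MYC (chr8:127735434-127741434, plus strand) was at 15.8, 15.8 and 13.2 CPM in ERbeta and at 16.1, 13.9 and 13.9 CPM in EV_Ctrl. The groups overlapped, with ERbeta 3 the lowest and EV_Ctrl 1 the highest library. MYC had a log2 fold change of 0.04 with a 95% interval of -0.27 to 0.35 (adjusted p 0.905, edgeR). After GC correction it was 0.14.

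**Figure D3:**
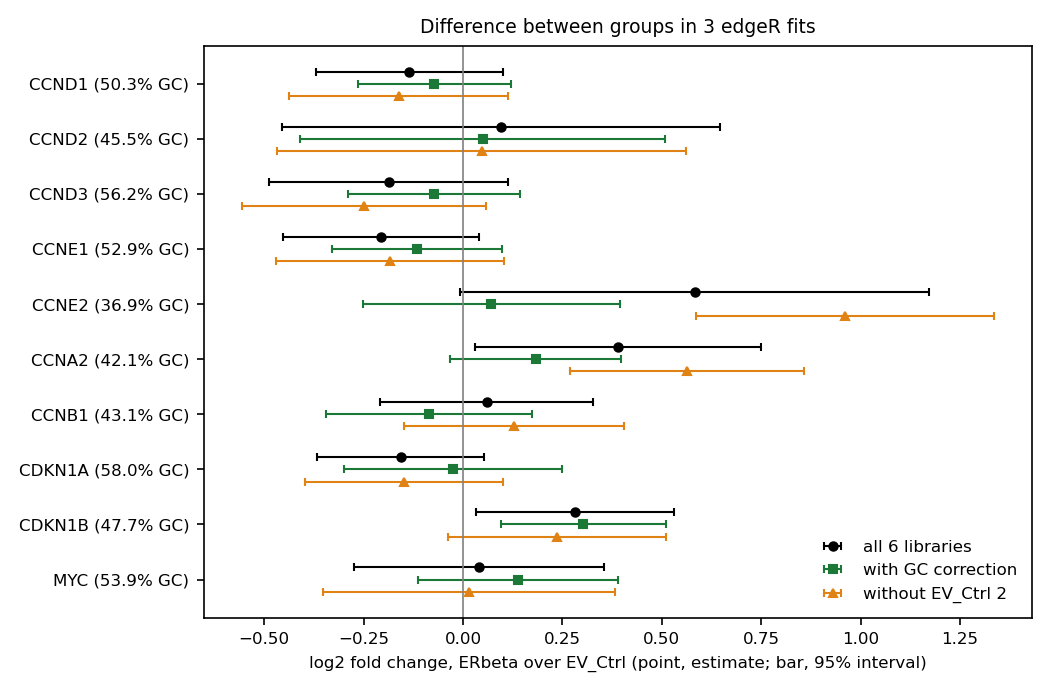
Log2 fold change of ERbeta over EV_Ctrl (horizontal axis) with its 95% interval for each gene, from edgeR with all 6 libraries (black), with GC correction (green) and without EV_Ctrl 2 (orange). CDKN1B was at 0.28, 0.30 and 0.24 in the 3 fits, whereas CCNE2 was at 0.58, 0.07 and 0.96.

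Together, 0 of the 10 genes passed over all genes when the counts were tested here in edgeR, DESeq2 or limma-voom, whereas CDKN1B was under 0.05 in the authors' deposited table, itself a DESeq2 result. Of the 10, 2 (CCNA2 and CDKN1B) had an unadjusted p under 0.05 in edgeR, where 12.4% of all tested genes did. Of all tested genes 9.54% were higher and 2.88% lower in ERbeta under this cut. The groups did not overlap for 4 of the 10, where 18.7% of all tested genes did not overlap, 10.2% higher and 8.48% lower in ERbeta. The median log2 fold change of the 10 was 0.05, beside -0.01 for all tested genes, and 0.01 after GC correction. Without EV_Ctrl 2, or without ERbeta 1, CCNE2, CCND1 and CCND3 joined the genes that did not overlap, 7 in all. Without ERbeta 1, 26.7% of all genes did not overlap. In the fit without EV_Ctrl 2, 45.6% of all genes did not overlap. The sign was the same in all 18 alternatives for CCND1, CCND3, CCNE1, CCNE2, CCNA2 and CDKN1B.

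Levels of different genes were compared as CPM per kilobase of merged GENCODE 29 exons, a length that includes every annotated isoform. CCNB1 was highest, at 98.2 ± 7.14 in ERbeta and 94.3 ± 10.2 CPM per kilobase in EV_Ctrl (SD, n = 3 each), followed by CDKN1A at 62.9 ± 3.35 and 70.1 ± 0.858. CCNA2 at 36.8 ± 3.999 and 28.0 ± 5.18 and CDKN1B at 33.2 ± 2.26 and 27.3 ± 1.84 overlapped each other within both groups. CCNE1 stood below them at 19.2 ± 1.35 and 22.1 ± 0.726, and CCND1 was the highest D cyclin at 12.9 ± 0.569 and 14.1 ± 0.723. CCND3 at 8.52 ± 0.994 and 9.71 ± 0.850 and CCND2 at 8.01 ± 2.54 and 7.49 ± 1.45 overlapped within both groups. In ERbeta CCNE2 at 6.83 ± 0.681 overlapped CCND2 and was above MYC at 4.98 ± 0.512, whereas in EV_Ctrl CCNE2 at 4.50 ± 1.71 overlapped MYC at 4.87 ± 0.422. The order of the genes was otherwise the same in both groups.

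The list of CDKs and subunits of the CDK-activating kinase gave 0 calls among 7 measured. Of these 5 were positive (all tested genes, 48.3%), with log2 fold changes from -0.07 to 0.64 and a median of 0.40. After GC correction 4 were positive and the median was 0.01, where 7718 of 16091 tested genes were positive. CDK4 and CDK2, the 2 negative ones and named after their values were seen, were at -0.05 ± 0.10 and -0.07 ± 0.09 (log2 fold change ± SE, edgeR). CDK6 was at 0.40 ± 0.19, at 121, 95.5 and 156 CPM in ERbeta and 80.8, 101 and 99.0 CPM in EV_Ctrl, and at -0.02 after GC correction. MNAT1, which assembles the CDK-activating kinase, was at 0.40 ± 0.18, at -0.15 after GC correction and at 0.61 without EV_Ctrl 2 (adjusted p 0.0168, edgeR). Both are genes of low GC content, at 39.5% and 36.7%. Without EV_Ctrl 2, 4 of the 7 passed, where 14.3% of all genes did.

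Of the other cyclins 5 of 6 were positive (all tested genes, 48.3%), with a median of 0.09 and 0 calls, and 4 of 6 with a median of 0.05 after GC correction. CCNG1, a cyclin gene induced by DNA damage, was at 345, 380 and 479 CPM in ERbeta and 178, 375 and 177 CPM in EV_Ctrl. As for CCNE2, EV_Ctrl 2 was inside the ERbeta range. Its log2 fold change was 0.72 with all libraries, 0.29 after GC correction and 1.19 without EV_Ctrl 2 (adjusted p 0.000253, edgeR). Unlike CCNE2 it also passed without EV_Ctrl 2 and with GC correction, at 0.47 (adjusted p 0.0219, edgeR). Against EV_Ctrl 2 alone, however, CCNG1 was at 0.10. CCNB3, a weakly expressed B-type cyclin, was at 0.44 ± 0.18, at 0.40 after GC correction, and at 2.78 to 3.26 CPM in ERbeta and 2.003 to 2.49 CPM in EV_Ctrl. Among 11 other CDK inhibitors, phosphatases and WEE-type kinases 5 were positive with a median of -0.02, and after GC correction 7 with a median of 0.05. CDKN1C (p57), the third member of the p21 and p27 family, was at 2.66, 3.06 and 2.57 CPM in ERbeta and 3.60, 4.19 and 3.05 CPM in EV_Ctrl, a log2 fold change of -0.41 ± 0.19, and -0.25 after GC correction. WEE1, a kinase that holds back CDK1, was at 0.29 ± 0.13 and at -0.27 after GC correction. Without EV_Ctrl 2 and with GC correction it passed in that direction, at -0.51 (adjusted p 0.0131, edgeR). Against EV_Ctrl 2 alone and without that correction, however, WEE1 was at 0.43.

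Genes upstream and downstream of the cyclins were counted in the same way, with 0 calls over all genes in each list. Of 19 factors of the RB, E2F and DREAM group 12 were positive with a median of 0.03, and after GC correction 8 with a median of -0.05. RB1 was at 0.56 ± 0.19 and LIN54 at 0.38 ± 0.14, and after GC correction they were at 0.03 and -0.06. RB1 passed without EV_Ctrl 2 at 0.80 (adjusted p 0.00215, edgeR), but was at 0.01 when GC correction was added. Of 20 E2F targets of the G1/S transition 8 were positive with a median of -0.06, and after GC correction 11 with a median of 0.02. MCM3, a subunit of the replicative helicase, was at -0.15 ± 0.08 and UHRF1 at -0.23 ± 0.14, and after GC correction they were at -0.07 and -0.11. Of 20 G2/M genes 16 were positive and the median was 0.32. After GC correction 20 of 20 were positive with a median of 0.16, where 7718 of 16091 tested genes were positive. NUSAP1, a spindle protein, was at 0.55 ± 0.21 and CKAP2 at 0.92 ± 0.39, with CKAP2 at 198, 194 and 245 CPM in ERbeta and 72.5, 194 and 67.7 CPM in EV_Ctrl. CKAP2 in EV_Ctrl 2 thus lay within the ERbeta range, and without that library 10 of the 20 genes passed, where 14.3% of all genes did. After GC correction NUSAP1 was at 0.38 and CKAP2 at 0.45, not passing. Without EV_Ctrl 2 NUSAP1 was at 0.84 and CKAP2 at 1.61 (adjusted p 0.000712 and 2.94e-05, edgeR). With GC correction and without EV_Ctrl 2 both still passed, NUSAP1 at 0.58 (adjusted p 0.00364) and CKAP2 at 0.78 (adjusted p 0.000526), where 10.3% of all genes did. Against EV_Ctrl 2 alone, however, NUSAP1 was at 0.11 and CKAP2 at 0.13.

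Among stress-induced genes, PMAIP1, which encodes the BH3-only protein NOXA, was at 0.65 ± 0.17 (log2 fold change ± SE, edgeR) and, after GC correction, at 0.09. Without EV_Ctrl 2 it was at 0.83 and passed (adjusted p 0.00153, edgeR), and at 0.03 with GC correction added. SESN2, a stress gene that ATF4 induces, was at 115, 107 and 90.1 CPM in ERbeta and 82.2, 78.6 and 90.0 CPM in EV_Ctrl. The groups did not overlap, although ERbeta 3 and EV_Ctrl 3 were nearly equal. It had a log2 fold change of 0.32 ± 0.12, and of 0.45 after GC correction. Without EV_Ctrl 2 and with GC correction it was also 0.45 and passed (adjusted p 0.0145, edgeR). MDM2 was at 0.04 ± 0.24 and GADD45A at 0.13 ± 0.12, both chosen after their values were seen.

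Partners and antagonists of MYC were positive in 3 of 11 with a median of -0.14, or -0.06 after GC correction, with MYCL at -0.25 ± 0.13 and MNT, a repressor that competes with MYC for MAX, at -0.32 ± 0.17. After GC correction MYCL was at -0.15 and MNT at -0.17. Of 15 MYC targets 11 were positive with a median of 0.08, and 11 with a median of 0.09 after GC correction. GNL3 was at 0.52 ± 0.19 and NPM1 at 0.53 ± 0.27, both nucleolar proteins, and after GC correction they were at 0.28 and 0.41. Both passed without EV_Ctrl 2, GNL3 at 0.79 and NPM1 at 0.93 (adjusted p 0.00115 and 0.000883, edgeR). They also passed with GC correction added, at 0.41 and 0.73 (adjusted p 0.0442 and 0.00622, edgeR). Against EV_Ctrl 2 alone, however, GNL3 was at 0.12 and NPM1 at -0.04. Of 15 genes that direct the turnover of cyclins, p27 and MYC 9 were positive with a median of 0.03, and after GC correction 6 with a median of -0.03. FBXW7, the ubiquitin ligase subunit that recognises cyclin E and MYC, was at 32.9, 32.5 and 37.9 CPM in ERbeta and 22.2, 28.0 and 18.5 CPM in EV_Ctrl. The groups did not overlap, and the log2 fold change was 0.58 ± 0.17 (adjusted p 0.396, edgeR), 0.55 after GC correction and 0.30 against EV_Ctrl 2 alone. It passed without EV_Ctrl 2, at 0.77 (adjusted p 0.00428), and with GC correction added, at 0.74 (adjusted p 0.00248). FBXO5, an inhibitor of the anaphase-promoting complex, was at 0.50 ± 0.19 and, after GC correction, at -0.16. It passed without EV_Ctrl 2 at 0.78 (adjusted p 0.00106), but was at -0.19 with GC correction added. SKP2, the ligase subunit for p27, was at 0.03 ± 0.14, named after its value was seen. For comparison, all 8 ER stress genes of the reference list were positive, with a median of 0.72 before and 0.78 after GC correction. DDIT3 (CHOP) among them was at 51.5, 48.5 and 43.8 CPM in ERbeta and 28.96, 28.2 and 25.4 CPM in EV_Ctrl. With all libraries HSPA5 was at 0.75 ± 0.08 and DDIT3 at 0.80 ± 0.12, neither passing (adjusted p 0.130 and 0.235, edgeR). HSPA5 at 0.73 and DDIT3 at 0.85 passed after GC correction (adjusted p 0.0488 each, edgeR). Both passed without EV_Ctrl 2, at 0.78 and 0.83 (adjusted p 0.000665 and 0.00192, edgeR). With GC correction added they also passed, at 0.75 and 0.91 (adjusted p 0.00174 and 0.000378, edgeR). Against EV_Ctrl 2 alone they were at 0.72 and 0.77. DDIT3 also passed in DESeq2 (adjusted p 8.52e-05). The authors' deposited table gave 0.72 for HSPA5 and 0.47 for DDIT3 (adjusted p 3.59e-21 and 0.0943, DESeq2).

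**Figure D4:**
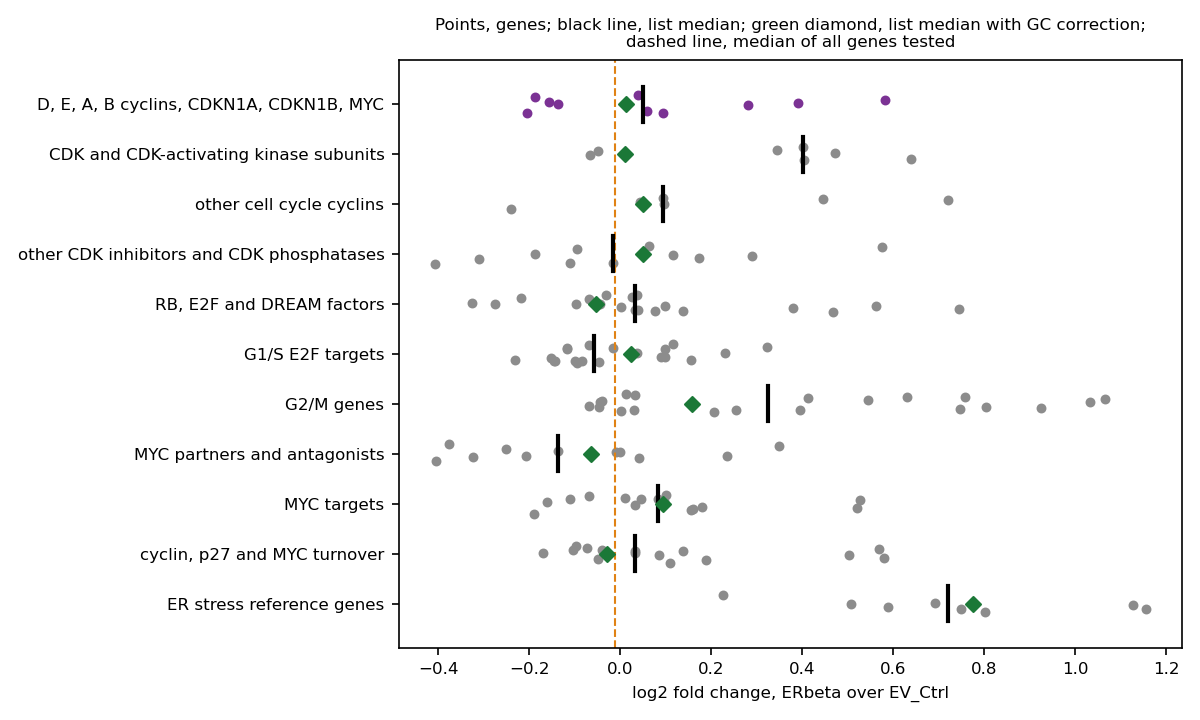
Log2 fold change of ERbeta over EV_Ctrl (horizontal axis) for every measured gene of each list shown (points), with the list's median (black line), its median after GC correction (green diamond) and the median of all tested genes (dashed line). The CDK list's median was 0.40 before and 0.01 after the correction, whereas that of the ER stress genes was 0.72 and 0.78.

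The genes whose log2 CPM followed a member most closely over the 6 libraries were listed for a CDK inhibitor, a D and an E cyclin. For CDKN1A they were BTN3A2, C22orf46P and SYTL4 (Pearson r of 0.996, 0.991 and 0.989). For CCND1 they were DCAKD, RSKR and PEX26 (0.999, 0.998 and 0.994). For CCNE2 they were RWDD1, CYRIB and UBA3 (0.998 each), all of 38.7% to 39.5% GC. With 6 libraries and 16243 genes such values describe likeness only, and the points share each library's depth and GC trend.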

How the data were processed

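The 6 HEK293T libraries, 3 labelled ERbeta and 3 labelled EV_Ctrl, were made with a stranded mRNA kit, per the labels' protocols. The submitters' processing notes name hg38, TopHat2, featureCounts and DESeq2. For these, the sources used here give no version, annotation or strand setting. The deposited table holds the authors' raw counts per gene. A second deposited table gives the authors' log2 fold change, mean signal after size factors, standard error and Wald statistic as scores, and p-values. It was quoted, never tested.

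Genes were filtered with filterByExpr (minimum count 10, minimum total 15), given TMM scaling factors, and compared in edgeR 4.0.16 in R 4.3.3 (group as the only term), with p-values adjusted by the Benjamini-Hochberg method over 16243 genes at a threshold of 0.05. SEs come from the quasi-likelihood F statistic. Symbols were found for 40995 of 64299 identifiers. For GC correction each library's log2 CPM was smoothed by loess, with a span of 0.5, against GC percent of the longest GENCODE 29 transcript. Each curve's deviation from the libraries' mean curve, added to the log of the scaled library size, served as an offset (16091 genes). Alternatives were DESeq2 1.42.0, limma-voom 3.58.1, other scalings and filters, a replicate block and left-out libraries. The steps were tested on simulated counts.

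The 10 genes and all lists were chosen with earlier results of these data known. From each list the 2 genes with the smallest p were named, and other names are said to be chosen later. The summary of 1 list is not reported here. The labels do not say that replicates were separate cultures, so the p-values rest on a spread that may be technical only. Within groups, every pair of libraries differed by more than counting noise (chi-square per degree of freedom 4.63 to 34.1).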

Additional observations from a re-analysis of the deposited data

How the results depend on the processing

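The number of genes passing over all genes was 0 with DESeq2 size factors, library size only, a filter of 1 CPM in all libraries, robust empirical Bayes and the replicate block with or without GC correction. It was 71 with DESeq2's test, 9 with GC correction, 1 with limma-voom, 51 without a filter on low counts, 0 to 2324 when a library was left out, and 1654 without EV_Ctrl 2 with GC correction. Of the 10 genes 0 to 2 passed when a library was left out, 2 only without EV_Ctrl 2 (2324 genes called), and 0 in every other alternative run. In that leave-one-out CCNE2 ranged from 0.36 to 0.96 and CCNA2 from 0.30 to 0.56 on the log2 scale. Of the 10 genes 4 to 7 did not overlap when a library was left out, where 22.8% to 45.6% of all genes did not, and 3 with library size only (20.9% of all genes), alternatives added after the data were seen. With library size only the median of all genes was -0.10, and CCND2 was at -0.0079, CCNB1 at -0.034 and MYC at -0.052. When a library was left out CCND2 ranged from -0.19 to 0.26, CCNB1 from -0.028 to 0.13 and MYC from -0.015 to 0.12. With GC correction CCNB1 was at -0.086, also with the replicate block (-0.086). MNAT1 was at -0.15, CDK6 at -0.022, WEE1 at -0.27, LIN54 at -0.055 and FBXO5 at -0.16, and with the replicate block as well at -0.15, -0.025, -0.23, -0.058 and -0.16. Without EV_Ctrl 2 and with GC correction CCND2 was at -0.014, CCNB1 at -0.084, CDKN1A at 0.026, MNAT1 at -0.21, CDK6 at -0.13, WEE1 at -0.51, LIN54 at -0.18 and FBXO5 at -0.19. Without EV_Ctrl replicates 1 and 3 CCNB1 was at -0.051 and NPM1 at -0.036; the lone control is then assumed to vary like the ERbeta libraries. In log2 CPM without GC correction, replicate numbers showed no clear pairing. These values carry each library's GC trend, so a shared replicate effect is not excluded. Deviations of same-numbered libraries correlated at 0.233, -0.136 and -0.152, and the replicate block gave 0 calls and 1814 genes at an unadjusted p under 0.05. Of the 6 libraries 1 (EV_Ctrl 1) correlated best with its own number. The cause of these shifts was not tested. With 3 libraries a group, the signs of CCND2, CCNB1 and MYC were not settled.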

Other observations

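The cell cycle genes were also sorted by the GC content of their longest transcript, a division made after the data were seen. Of 21 members and list genes (ER stress genes apart) below 40% GC, 21 had a positive log2 fold change in ERbeta over EV_Ctrl, with a median of 0.58, and so did 2259 of 2449 tested genes in that class. That median was 0.96 without EV_Ctrl 2, 0.10 against EV_Ctrl 2 alone and 0.07 after GC correction. Of 65 such genes from 40% to 50% GC 54 were positive, with a median of 0.11, and 0.03 after GC correction, where 3854 of 6343 tested genes were positive with a median of 0.06. Of 67 such genes at 50% GC or more 17 were positive, with a median of -0.07, and 0.05 after GC correction. All tested genes gave the same order, with a median of 0.47 below 40% GC and -0.12 at 50% or more, where 1666 of 7299 were positive. CCNE2 is the member below 40% GC, and CDKN1B, at 47.7%, lies near the median of the tested genes. The part of GC content in these differences was not tested beyond that correction.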
